A study of Mus musculus with 55 samples.

Results

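The enzymes that make, salvage and break down pyrimidines were followed by name as 10 genes: Cad, Dhodh, Umps, Upp2, Uck1, Uck2, Cmpk1, Dpyd, Dpys and Upb1. They were taken as the listed enzymes of orotate and uridine synthesis, salvage and breakdown, a rule that does not use measured values. Earlier results of these data were known when the list was chosen. All 10 had a row among the 24475 genes of the count table, and all 10 were among the 13311 genes expressed enough to be tested.

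Liver messenger RNA was sequenced from 55 male mice of 2 strains and 3 vectors. WT mice were B6EiC3SnF1/J hybrids. OTC mice came from B6EiC3Sn a/A-Otcspf-ash/J: their copy of Otc, the X-linked gene of the urea cycle enzyme ornithine transcarbamylase, is the spf-ash allele. Every mouse, controls included, received an adeno-associated virus by vein at 4 months of age (week 0), changed from chow to a diet with 40% protein at week 2, and gave its liver at week 5, at 5 months of age. The virus carried a scrambled hairpin (control), a hairpin against Gls2, the liver glutaminase (sh-GLS2), or a hairpin against Glud1, glutamate dehydrogenase (sh-GLUD1). Among WT mice, 10 received the control vector, 10 sh-GLS2 and 9 sh-GLUD1; among OTC mice the numbers were 8, 10 and 8. No group lacked a virus or the diet, the serotype and promoter of the virus are not given in the sources used here, and the Otc allele and the rest of the strain background cannot be told apart.

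Pyrimidine nucleotides are built from carbamoyl phosphate and aspartate through orotate to UMP, and are also recovered from uridine and cytidine. In the liver, uracil and thymine are broken down to beta-alanine and beta-aminoisobutyrate. When ornithine transcarbamylase is short, carbamoyl phosphate from mitochondria can enter the cytosolic route, and orotate in urine is the known marker of this deficiency.

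Depth ran from 14489866 to 22781052 total counts (median 18683991). The mean level of Otc was 522 ± 38.5 CPM, the TMM-normalised count scaled to a common library size (SD, n = 10), in WT control and 61.2 ± 11.7 (n = 8) in OTC control. With the hairpin against it, Gls2 was at 204 CPM in WT and 198 in OTC, against 441 and 439 with the control vector, while Glud1 under its own hairpin was at 386 CPM in WT and 444 in OTC, against 1035 and 1068. All 7 hepatocyte markers found in the table were detected, with summed levels of 80190 to 130200 CPM in WT control and 93680 to 137600 in OTC control. The WT control library of mouse 7 stood apart for several of the 10 enzymes, with the highest Cad and the lowest Upp2, Uck1, Dpyd, Dpys and Upb1 of its group. It also had the highest Saa1 (904 CPM against 26.7 to 359 in the other 9), an acute phase gene. Values without this mouse are given beside several of the changes it moved.

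The 10 enzymes differed widely in abundance, compared here per transcript length as the deposited TPM. Upb1 had a median over the 55 libraries of 317.7 TPM, Upp2 239.9, Dpyd 165 and Dpys 129, so the 3 breakdown enzymes and the uridine phosphorylase lay at the top. Cmpk1 followed at 77.1 TPM, Uck1 at 22.3, Umps at 14.2, Uck2 at 5.29, Dhodh at 4.21 and Cad at 2.57. The lowest raw count of any of the 10 in any library was 49, for Uck2. Variation between mice of 1 group was among the smallest for Cmpk1 (coefficients of variation of 4.74% to 11.7%) and largest for Upp2 (28.2% to 58.7%), apart from 72.8% for Cad in WT control, where mouse 7 lies.

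**Figure D1:**
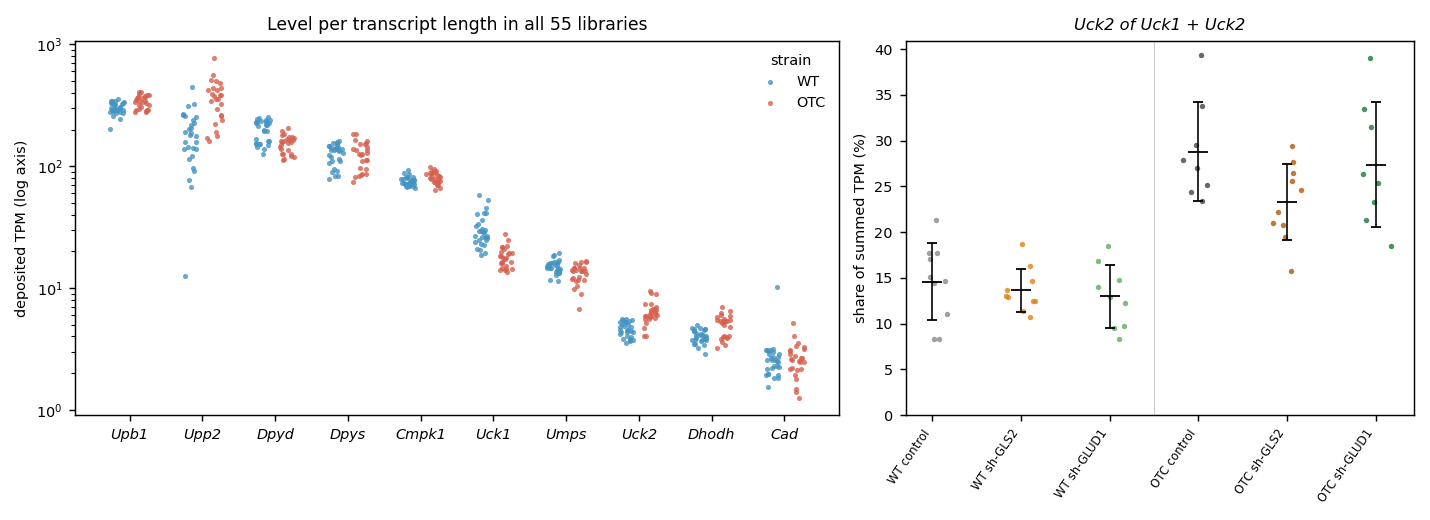
Left, deposited TPM (log axis) of each pyrimidine enzyme in the 55 libraries, WT in blue and OTC in red; the breakdown enzymes and Upp2 lie above 10 TPM in every library and Cad has the lowest median, 2.57 TPM. Right, Uck2 as a percentage of summed Uck1 and Uck2 TPM in each library, with mean and SD, with the OTC control libraries at 23.4% to 39.4% and the WT control libraries at 8.35% to 21.4%.

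Each change below is a log2 fold change with its standard error from edgeR's quasi-likelihood test over all 55 libraries. It was called where its p, Benjamini-Hochberg adjusted for the 13311 genes, was under 0.05. Between OTC control and WT control, 3 of the 10 enzymes were higher (Dhodh, Upp2, Uck2) and 3 lower (Umps, Uck1, Dpyd), where 36.3% of all genes were called, 19.9% higher and 16.4% lower. The median change of the 10 was -0.06, against 0.02 over all genes tested. With sh-GLS2, 3 of 10 fell in WT (Dhodh, Dpyd, Dpys), where 34.8% of all genes were called, 17.6% higher and 17.2% lower. The 34.8% is close to the 3 of 10 seen for these enzymes. The WT call of Dhodh was lost when any of several single libraries was left out. The same hairpin lowered 5 of 10 in OTC (Dhodh, Uck2, Dpyd, Dpys, Upb1), a comparison in which 42.7% of all genes were called, 20.2% higher and 22.6% lower. This share of 42.7% is also near the 5 of 10. None of the 10 was called higher with sh-GLS2 in either strain; the median change was -0.12 in WT and -0.26 in OTC, against -0.01 and -0.02 over all genes. Each control group serves in more than 1 of these comparisons, so their values are set side by side and not correlated.

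**Figure D2:**
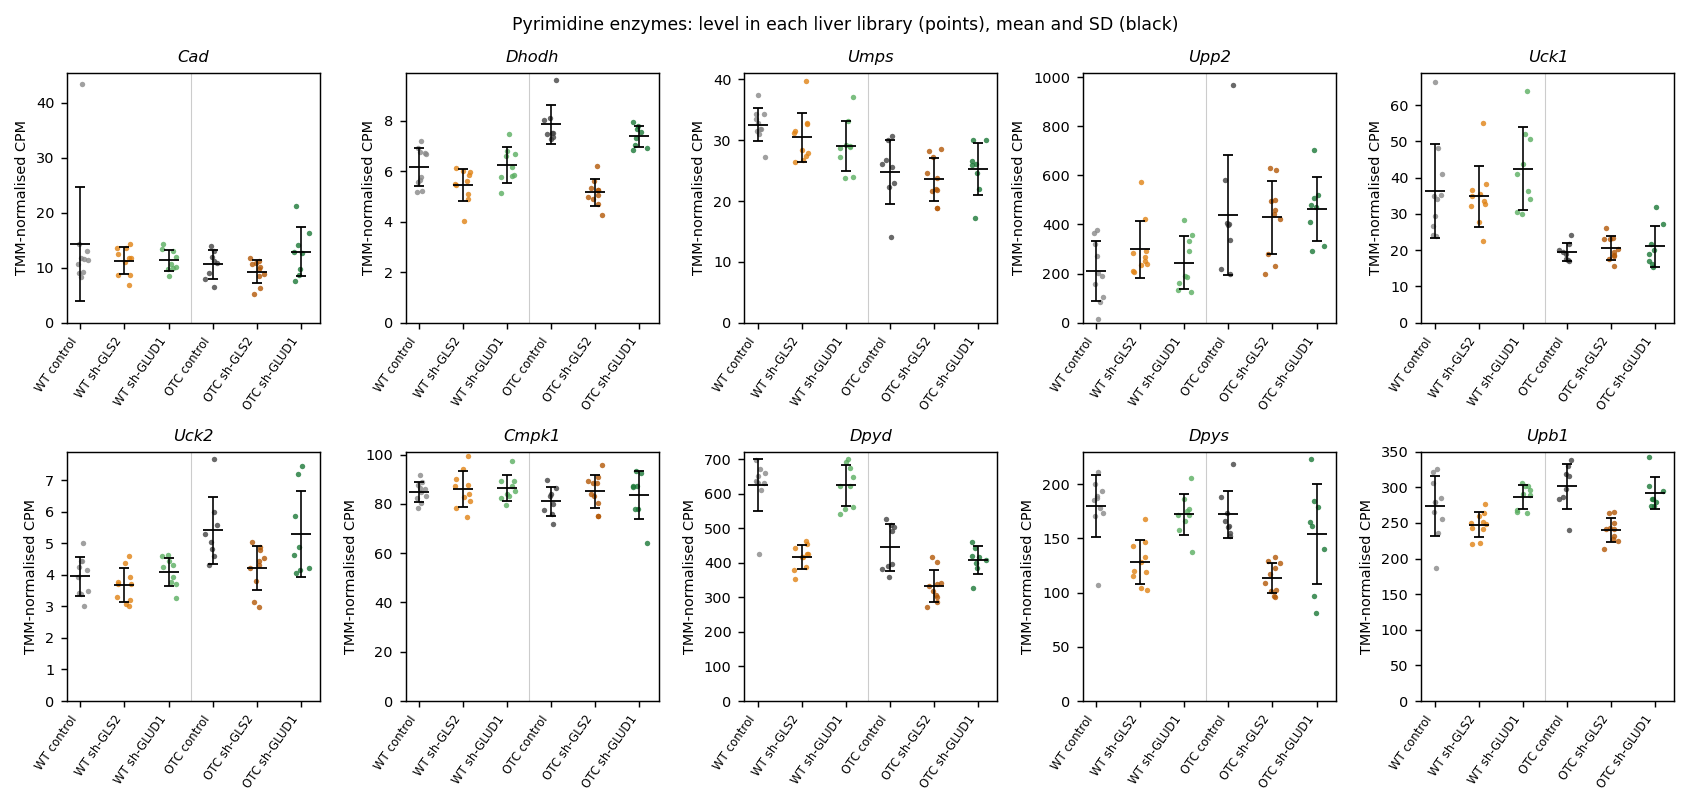
TMM-normalised CPM of each pyrimidine enzyme in every library (points) with the group mean and SD (black), for WT groups on the left and OTC groups on the right of each panel. Dhodh stands between 7.30 and 9.61 CPM in OTC control and between 4.27 and 6.204 in OTC sh-GLS2, and the mean of Dpyd is lower in each OTC group than in the WT group with the same vector.

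**Figure D3:**
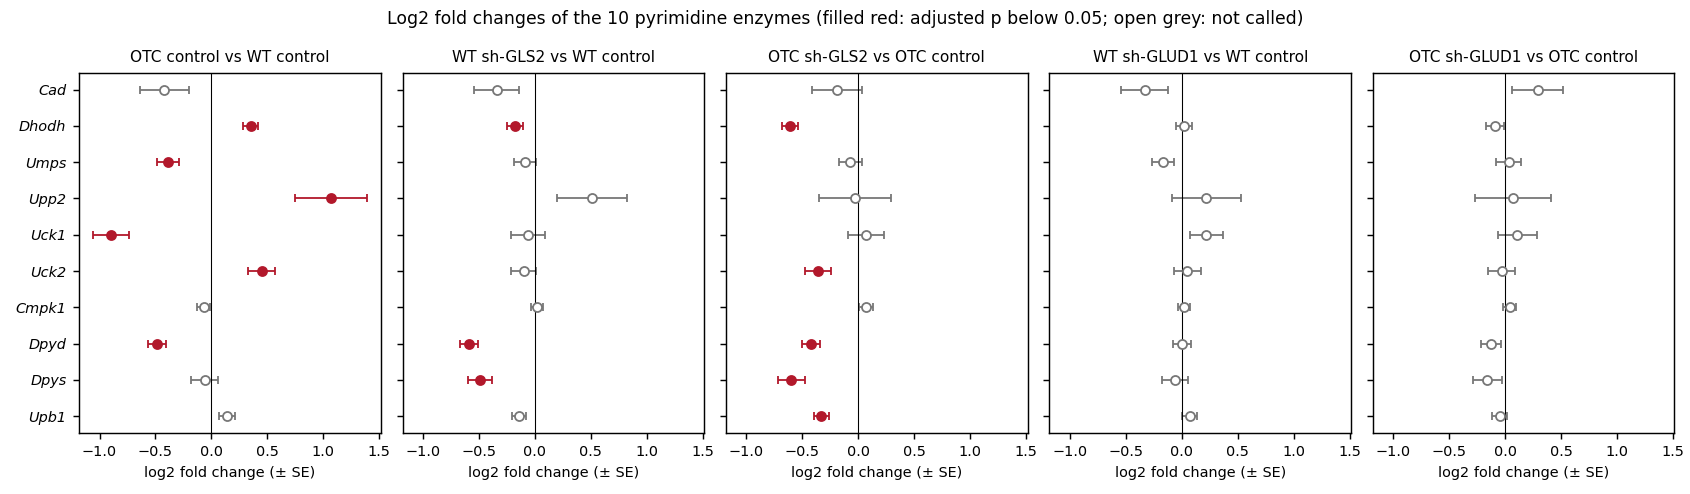
Log2 fold change of each pyrimidine enzyme in 5 comparisons, with bars of 1 standard error and red points for an adjusted p below 0.05. With sh-GLS2 the called enzymes all lie left of 0, and with sh-GLUD1 none is called.

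Among the 3 enzymes of new synthesis, Dhodh rose and Umps fell in OTC control while Cad was not called. Cad (chromosome 5, 31054780 to 31078479, plus strand, GENCODE M21 on GRCm38) encodes the cytosolic protein that joins carbamoyl phosphate synthetase, aspartate transcarbamylase and dihydroorotase. Its level was 8.24 CPM at the lowest, 11.6 at the median and 43.4 at the highest in WT control, and 6.49, 11.1 and 14.04 in OTC control. The 9 WT control mice other than mouse 7 lay at 8.24 to 14.3 CPM, and the ranges overlapped. The change was -0.42 ± 0.22 (adjusted p = 0.123), and -0.07 without mouse 7 (95% interval with all libraries -0.86 to 0.01). With sh-GLS2 in WT the change was -0.34 ± 0.20, and 0.02 without mouse 7. No comparison of the 11 called Cad, and its mean level ran from 14.3 CPM in WT control (11.05 without mouse 7) to 9.31 in OTC sh-GLS2 with no neighbouring groups further apart than their SD.

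Dhodh (chromosome 8, 109591343 to 109608673, minus strand), the mitochondrial dihydroorotate dehydrogenase that makes orotate, differed with both strain and hairpin. In WT control it was at 5.20 CPM (lowest), 6.23 (median) and 7.21 (highest), and in OTC control at 7.30, 7.52 and 9.61. All 8 OTC control libraries lay above all 10 WT control libraries. Dhodh was 1.27-fold higher in OTC control, a log2 change of 0.35 ± 0.07 (adjusted p = 0.000233). Its highest value, 9.61 CPM, came from OTC control mouse 67, whose removal left the call.

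With sh-GLS2 in OTC, Dhodh was at 4.27 CPM (lowest), 5.15 (median) and 6.204 (highest). All 10 of these libraries lay below all 8 OTC control libraries. The change was -0.61 ± 0.07 (adjusted p = 3.92e-09), which put the level at 65.7% of that in OTC control. In WT sh-GLS2 the values were 4.04, 5.56 and 6.11 CPM, within the range of WT control but for 3 libraries below it. The WT change was -0.18 ± 0.07 (adjusted p = 0.0441), and this call was lost without any of 9 of the 20 libraries (WT control mice 2, 10, 11, 13 and 20 and WT sh-GLS2 mice 14, 30, 36 and 45), with adjusted p up to 0.106. The OTC fall and the higher level in OTC control rest on the same 8 control libraries.

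The fall of Dhodh was larger in OTC than in WT, with a strain difference of -0.43 ± 0.10 (adjusted p = 0.0442); it was the only 1 of the 10 enzymes called for this difference, where 0.338% of all genes were called, 0.12% higher and 0.218% lower. Without 1 library at a time it was lost for 26 of 38 libraries, with values of -0.46 to -0.38 and adjusted p of 0.0189 to 0.0888. Between strains under sh-GLS2, Dhodh no longer differed beyond the test's threshold (-0.08 ± 0.07, adjusted p = 0.423, interval -0.22 to 0.06). Under sh-GLUD1 it was again higher in OTC, by 0.24 ± 0.08 (adjusted p = 0.0124), in libraries that the control comparison did not use.

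Umps (chromosome 16, 33954782 to 33967038, minus strand) encodes the enzyme that turns orotate into UMP. It was at 27.2 CPM (lowest), 32.4 (median) and 37.4 (highest) in WT control, and at 14.1, 25.8 and 30.8 in OTC control. Of the OTC control libraries, 6 of 8 lay below every WT control library. The change was -0.39 ± 0.10 (adjusted p = 0.00252). Under sh-GLS2, Umps was lower in OTC (-0.37 ± 0.10, adjusted p = 0.00331). There 3 of 10 enzymes were called, all lower, and 29.5% of all genes, 14.5% higher and 14.9% lower. On the log2(TPM + 1) scale that change of Umps was -0.22 and not called by limma (adjusted p = 0.0716). Under sh-GLUD1 its change of -0.20 ± 0.11 was not called (adjusted p = 0.143). Within a strain, sh-GLS2 moved it by -0.09 in WT and -0.07 in OTC, neither called (adjusted p = 0.477 and 0.601).

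Between the controls, the genes of orotate formation (Dhodh) and orotate use (Umps) thus had called changes of opposite sign, at mean levels of 7.87 and 24.8 CPM in OTC control against 6.17 and 32.6 in WT control. An exon of Umps overlaps Gm15829 on the opposite strand; the library kit keeps strand per the labels, and whether the counting used it is not given in the sources used here. These are levels in whole liver, where fewer cells of a type and less RNA per cell cannot be told apart.

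Of the salvage enzymes, Upp2 and Uck2 were higher and Uck1 lower in OTC control, and Cmpk1 was not called in any of the 11 comparisons. Upp2 (chromosome 2, 58567298 to 58792971, plus strand), the uridine phosphorylase of liver that splits uridine into uracil and ribose 1-phosphate, was the most variable of the 10. In WT control it was at 16.5 CPM (lowest), 195 (median) and 379 (highest), and in OTC control at 196, 400.1 and 968. Of the 8 OTC control libraries, 5 lay above every WT control library, and the lowest 3 overlapped with them. The change was 1.07 ± 0.32, or 2.10-fold (adjusted p = 0.0079). The 16.5 CPM came from WT control mouse 7, and without this mouse the change was 0.92 (adjusted p = 0.00996). Leaving out OTC control mouse 67, which held the highest value, gave 0.79 (adjusted p = 0.0515), and leaving out mouse 3 as well gave 0.76 (adjusted p = 0.0863).

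The same direction for Upp2 was called under sh-GLUD1, in other mice, at 0.92 ± 0.33 (adjusted p = 0.0272), where 3 of the 10 enzymes were higher and 2 lower and 35% of all genes were called, 19.9% higher and 15.1% lower. That call was lost without WT sh-GLUD1 mouse 15, 37 or 40 or OTC sh-GLUD1 mouse 58, with values of 0.80 to 0.85. Under sh-GLS2 the change of 0.52 ± 0.31 was not called (adjusted p = 0.195). The hairpins moved Upp2 by no more than 0.51 ± 0.31 (sh-GLS2 in WT, adjusted p = 0.198, interval -0.11 to 1.13). On log2(TPM + 1) that change was 0.83 and was called by limma (adjusted p = 0.0476). That fit kept WT control mouse 7, which had the lowest Upp2 of its group. Without this mouse the edgeR change was 0.37 (adjusted p = 0.303).

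Uck1 and Uck2 encode the uridine-cytidine kinases that turn uridine and cytidine into UMP and CMP. Uck1 (chromosome 2, 32255002 to 32260159, minus strand) was at 23.98 CPM (lowest), 34.5 (median) and 66.3 (highest) in WT control and at 17.1, 19.3 and 24.3 in OTC control. Of the OTC control libraries, 7 of 8 lay below every WT control library. The change was -0.90 ± 0.16 (adjusted p = 2.31e-05), which put the OTC level at 53.7% of WT.

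Uck1 was also lower in OTC under sh-GLS2 (-0.76 ± 0.15, adjusted p = 0.000144) and under sh-GLUD1 (-1.01 ± 0.17, adjusted p = 5.33e-06), and these 3 comparisons share no library. Neither hairpin moved it past the threshold within a strain. Of the 50-base stretches of the Uck1 transcripts, 17.5% also occur in 2 other genes (Gm4482 and Umpk-ps), and an exon overlaps Pomt1 on the opposite strand, so its counts are uncertain. Pomt1 itself was at 16.9 ± 2.93 CPM (n = 10) in WT control and 11.1 ± 2.68 (n = 8) in OTC control, and its part in the result was not tested.

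Uck2 (chromosome 1, 167222883 to 167285320, minus strand) went the other way. It was at 3.01 CPM (lowest), 4.04 (median) and 5.00 (highest) in WT control and at 4.33, 5.16 and 7.67 in OTC control, with 5 of 8 OTC libraries above every WT library. The change was 0.45 ± 0.12 (adjusted p = 0.0021). Under sh-GLS2 the change of 0.20 ± 0.11 was not called (adjusted p = 0.183). Under sh-GLUD1 Uck2 was higher in OTC by 0.38 ± 0.12 (adjusted p = 0.0133), a call lost without OTC sh-GLUD1 mouse 58 (0.29) or mouse 65 (0.28).

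With sh-GLS2 in OTC, Uck2 was at 2.99, 4.38 and 5.05 CPM, and 5 of 10 libraries lay below every OTC control library. The change was -0.36 ± 0.12 (adjusted p = 0.0113). OTC control mouse 3 was the highest at 7.67 CPM, and without this mouse the change was -0.27 (adjusted p = 0.0587). In WT the change was -0.10 ± 0.11 (adjusted p = 0.505), and the strain difference of -0.25 ± 0.16 was not called (adjusted p = 0.586). Exons of Uck2 overlap Gm2453 on the opposite strand.

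The share of Uck2 among these kinases did not overlap between the control groups. Uck2 made up 14.6% ± 4.24 (SD, n = 10) of summed Uck1 and Uck2 TPM in WT control and 28.8% ± 5.40 (n = 8) in OTC control, and the ranges of 8.35% to 21.4% and 23.4% to 39.4% did not overlap. With sh-GLS2 the share was 13.6% ± 2.37 in WT and 23.3% ± 4.17 in OTC, and with sh-GLUD1 13.0% ± 3.42 and 27.4% ± 6.82. The sh-GLS2 ranges overlapped (10.7% to 18.7% in WT, 15.8% to 29.4% in OTC), and the sh-GLUD1 ranges lay just apart (8.28% to 18.4% and 18.5% to 39.03%). These shares follow from the values already tested gene by gene and carry no test of their own.

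Cmpk1 (chromosome 4, 114959336 to 114987241, minus strand), the kinase that turns UMP and CMP into their diphosphates, had the group means closest together. They lay between 81.1 CPM in OTC control and 86.4 in WT sh-GLUD1. Its change was -0.07 ± 0.06 between OTC control and WT control (adjusted p = 0.364, interval -0.18 to 0.05), 0.02 ± 0.05 with sh-GLS2 in WT and 0.07 ± 0.06 in OTC.

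The breakdown enzymes fell with sh-GLS2: Dpyd and Dpys in both strains, and Upb1 in OTC. Dpyd, dihydropyrimidine dehydrogenase, takes the first and rate-limiting step from uracil and thymine; Dpys, dihydropyrimidinase, opens the ring; Upb1, beta-ureidopropionase, releases beta-alanine. Dpyd and Upb1, the breakdown enzymes with a RefSeq promoter, both fell with sh-GLS2 in OTC. The bases before their RefSeq start sites (GRCm38.p6) are shown, leaving out bases of annotated exons, on the plus strand. They lie at chr3:118561930-118562128 for Dpyd and chr10:75406661-75406910 for Upb1. Capitals mark a match to a searched motif. The stretch of Upb1 lies inside its longer GENCODE gene model.
Dpyd: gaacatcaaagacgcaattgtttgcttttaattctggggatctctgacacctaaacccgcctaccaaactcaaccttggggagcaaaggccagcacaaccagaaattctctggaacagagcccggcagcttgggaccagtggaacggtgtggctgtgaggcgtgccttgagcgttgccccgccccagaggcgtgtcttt
Upb1: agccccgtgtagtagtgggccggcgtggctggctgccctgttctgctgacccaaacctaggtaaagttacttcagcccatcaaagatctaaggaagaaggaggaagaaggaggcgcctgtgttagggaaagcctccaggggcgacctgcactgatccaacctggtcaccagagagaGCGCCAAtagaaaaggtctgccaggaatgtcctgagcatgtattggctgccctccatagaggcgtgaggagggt

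Both strands were searched for CACGTG (E-box), TGATGNAA (ATF4 composite element), TTATGNAA (D-box) and TTGGCGC or TTCCCGC (E2F). The window of Upb1 held 1 match, GCGCCAA, the other strand of TTGGCGC, starting at position -74 from the RefSeq start, and no other motif overlapped it. The window of Dpyd held none of these letters. Over all 32851 promoters of the table, each 300 bases long and so longer than these windows, 6.81% held an E2F match, 7.15% CACGTG, 3.97% TGATGNAA and 3.38% TTATGNAA. RefSeq promoters matched 8 of the 10 genes, all but Dhodh and Dpys. Without exon bases, Umps was left with 0 bases to search, Uck2 with 28 and the second start of Upp2 with 8. Of the genes with a promoter, only Upb1 held a match.

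Dpyd (chromosome 3, 118562129 to 119432924, plus strand) was at 425 CPM (lowest), 635 (median) and 699 (highest) with the control vector in WT and at 352, 420.2 and 464 with sh-GLS2. Mouse 7 gave the 425 CPM; the other 9 WT control libraries lay at 611 to 699, above all 10 WT sh-GLS2 libraries. The change was -0.59 ± 0.08, a level at 66.7% of control (adjusted p = 3.19e-08), and -0.64 without mouse 7.

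In OTC, Dpyd was at 359 CPM (lowest), 446 (median) and 526.1 (highest) in control and at 273, 325 and 416 with sh-GLS2, so that 8 of 10 sh-GLS2 libraries lay below every control library. The change was -0.42 ± 0.08 (adjusted p = 3.72e-05). The strain difference of 0.16 ± 0.11 was not called (adjusted p = 0.63, interval -0.07 to 0.39).

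With all libraries, Dpyd was the only breakdown enzyme called between strains. It was lower in OTC with the control vector (-0.49 ± 0.08, adjusted p = 7.61e-06), with sh-GLS2 (-0.33 ± 0.08, adjusted p = 0.00116) and with sh-GLUD1 (-0.62 ± 0.09, adjusted p = 2.01e-07), in 3 comparisons without a shared library. Under sh-GLUD1 the strains did not overlap, with WT at 542 to 701 CPM and OTC at 326 to 459. In the order of group means, WT control (625 CPM) and WT sh-GLUD1 (624) differed by less than their SD. OTC control (445), WT sh-GLS2 (417) and OTC sh-GLUD1 (407) followed, each within an SD of the next, and OTC sh-GLS2 (332) was lowest.

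Dpys (chromosome 15, 39768487 to 39857470, minus strand) was at 107 CPM (lowest), 186 (median) and 212 (highest) with the control vector in WT and at 102, 124 and 168 with sh-GLS2. Without mouse 7 at 107 CPM, WT control began at 170.4, above all 10 WT sh-GLS2 libraries. The change was -0.49 ± 0.11 (adjusted p = 0.000621), and -0.56 without mouse 7.

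In OTC, Dpys was at 153 CPM (lowest), 164 (median) and 219 (highest) in control and at 96.1, 113 and 133 with sh-GLS2, without overlap. The change was -0.60 ± 0.12 (adjusted p = 6.29e-05), and the strain difference of -0.11 ± 0.17 was not called (adjusted p = 0.863). Dpys did not differ between OTC control and WT control past the threshold (-0.06 ± 0.12, adjusted p = 0.724, interval -0.30 to 0.18).

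Upb1 (chromosome 10, 75401115 to 75441679, plus strand) was at 240.2 CPM (lowest), 307 (median) and 338 (highest) in OTC control and at 213, 242 and 265 in OTC sh-GLS2, where 4 of 10 libraries lay below every control library. The change was -0.33 ± 0.07 (adjusted p = 9.84e-05). In WT it was at 186, 279 and 325 CPM in control and at 219.7, 249 and 276 with sh-GLS2, and the change of -0.14 ± 0.06 missed the threshold (adjusted p = 0.0728). Without WT control mouse 7, its lowest library, the WT change was -0.20 (adjusted p = 0.00403); without WT control mouse 19 or WT sh-GLS2 mouse 34 it was also called, at -0.17 each. The strain difference was -0.18 ± 0.09 (adjusted p = 0.459).

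Between strains, Upb1 differed by 0.14 ± 0.07 in the controls, not called (adjusted p = 0.105), and by 0.08 without WT control mouse 7. Without OTC control mouse 38 it was called at 0.17 (adjusted p = 0.0386), and limma on the log2(TPM + 1) scale called it at 0.27 (adjusted p = 0.000768). On that scale the median of all genes itself stood at 0.10 in this comparison, against 0.02 in counts, and 77.5% of calls were higher in OTC against 54.9%. None of the 6 called enzymes changed sign on either TPM scale.

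Some markers of other liver cells were called with sh-GLS2, where 17.6% of all genes were higher and 17.2% lower in WT. In OTC these shares were 20.2% and 22.6%. With sh-GLS2, 8 of 10 Kupffer cell and macrophage markers were higher in WT and 9 of 10 in OTC, with summed levels of 116 to 193 CPM in WT control against 165 to 263, and 90.0 to 219.7 CPM in OTC control against 184 to 325. Of 10 stellate cell markers 4 were higher in WT and 6 in OTC, and of 11 markers of cycling cells 9 were higher in each strain. Of the 7 hepatocyte markers, 1 was lower in WT and 3 in OTC with none higher, and the summed level was 86520 to 127900 CPM in WT sh-GLS2 and 88160 to 116700 in OTC sh-GLS2. Of 8 endothelial markers 1 was higher in WT and 6 in OTC. The WT counts of hepatocyte and endothelial markers lay near or below the shares of all genes. Markers of T and NK cells had medians of 0.47 and 0.49, of B cells 0.10 and 0.41, of bile duct cells 0.38 and 0.29 and of red cells 0.38 and -0.30. No gene of these lists was at 0 in all 55 libraries, and their part in the changes of the breakdown enzymes was not tested.

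Between OTC control and WT control, 6 of 10 periportal hepatocyte markers were higher and 1 lower (median 0.41), and 1 of 11 pericentral markers was higher and 7 lower (median -0.69). Of all genes, 19.9% were higher and 16.4% lower in that comparison. With sh-GLS2, 5 of 11 pericentral markers were higher in OTC, and 1 higher and 1 lower in WT; of 10 periportal markers, 2 were higher and 3 lower in OTC and 1 higher in WT. Of 11 markers of cycling cells, 1 was higher and 6 lower in OTC control than in WT control. Their part in the strain differences of the 10 enzymes was not tested.

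With the hairpin against Glud1, none of the 10 enzymes passed the test. In WT, edgeR called 0 of 10, with 0 at an unadjusted p below 0.05 and a smallest adjusted p of 0.945, where 0.0225% of all genes were called. In OTC it called 0 of 10, again with 0 at an unadjusted p below 0.05 and a smallest adjusted p of 0.988, where 0.015% were called. The DESeq2 Wald test and limma on TPM also called 0 of 10 in both strains. The changes ran from -0.33 (Cad) to 0.22 (Uck1 and Upp2) in WT; without WT control mouse 7 these were 0.03, 0.17 and 0.08. They ran from -0.16 (Dpys) to 0.29 (Cad) in OTC. For Dpyd the intervals were -0.16 to 0.16 in WT and -0.30 to 0.05 in OTC, and for Dhodh -0.13 to 0.17 and -0.25 to 0.07, so changes of the size seen with sh-GLS2 in OTC lie outside them. The strain difference in this response was called by edgeR for 0 of 10 (0% of all genes), with 0 at an unadjusted p below 0.05, and DESeq2 and limma also called 0; Cad came nearest at 0.62 ± 0.31 (adjusted p = 0.999), and stood at 0.26 without WT control mouse 7.

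Set against each other within a strain, sh-GLS2 gave lower levels than sh-GLUD1 for 4 of 10 enzymes in WT and 5 of 10 in OTC. Over all genes the share called was 29.6% in WT (15.5% higher, 14.2% lower) and 40.5% in OTC (19.5% and 21.1%). In WT these were Dhodh (-0.20 ± 0.07), Dpyd (-0.58 ± 0.08), Dpys (-0.43 ± 0.12) and Upb1 (-0.21 ± 0.07), with edgeR adjusted p of 0.0344, 7.22e-08, 0.00371 and 0.011. In OTC they were Dhodh (-0.52 ± 0.07), Uck2 (-0.33 ± 0.12), Dpyd (-0.30 ± 0.08), Dpys (-0.44 ± 0.12) and Upb1 (-0.28 ± 0.07), with adjusted p of 2.1e-07, 0.0199, 0.00317, 0.00274 and 0.000772. Thus all 3 breakdown enzymes were lower with sh-GLS2 than with sh-GLUD1 in both strains. Dhodh in WT lost its call without any of 7 of 19 libraries, with adjusted p up to 0.0855, and Uck2 in OTC without OTC sh-GLS2 mouse 60 or OTC sh-GLUD1 mouse 58 or 65 (-0.28, -0.25 and -0.25).

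Among other genes of pyrimidine synthesis, Ctps2, Cmpk2 and Nme1 rose with sh-GLS2 in both strains, and Nme3 fell in OTC. Of 13 further genes of pyrimidine synthesis and salvage, 4 were higher and 2 lower in OTC control than in WT control, and sh-GLS2 raised 5 and lowered 1 in each strain (medians 0.19, 0.32 and 0.30). Of all genes, 19.9% were higher and 16.4% lower between the controls. With sh-GLS2 these shares were 17.6% and 17.2% in WT, and 20.2% and 22.6% in OTC. Ctps2, a CTP synthase that makes CTP from UTP, was at 7.04 CPM (lowest), 7.76 (median) and 10.5 (highest) with the control vector in WT and 16.0, 17.98 and 22.0 with sh-GLS2, without overlap. In OTC it was at 8.97, 11.4 and 12.9 CPM in control and 18.5, 21.04 and 25.2 with sh-GLS2, also without overlap. Its changes were 1.17 ± 0.08 in WT (adjusted p = 1.85e-16) and 0.93 ± 0.09 in OTC (adjusted p = 2.69e-12). Cmpk2, a mitochondrial UMP-CMP kinase induced by interferon, rose by 1.45 ± 0.24 in WT (adjusted p = 3.76e-06) and 0.89 ± 0.24 in OTC (adjusted p = 0.00268), the OTC value being given beside that in WT, where the naming rule chose it. Nme1, a nucleoside diphosphate kinase, rose by 0.33 ± 0.07 and 0.32 ± 0.07 (adjusted p = 5.26e-05 and 0.000157). Nme3, of the same family, changed by -0.51 ± 0.09 in OTC (adjusted p = 7.03e-06).

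A list of 5 genes, drawn up for the breakdown of beta-alanine and beta-aminoisobutyrate after Upb1, was mostly lower in OTC control. There 4 of 5 were lower and none higher (median -0.41), among them Agxt2 (-0.58 ± 0.09, adjusted p = 1.01e-06), Abat (-0.44 ± 0.09, adjusted p = 0.000112) and Hibadh (-0.41 ± 0.07, adjusted p = 1.31e-05). Agxt2 and Abat encode aminotransferases that act on beta-aminoisobutyrate and beta-alanine, and Hibadh a dehydrogenase of valine breakdown. The counts of this list are therefore not limited to the route after Upb1. With sh-GLS2, 1 of 5 fell in WT, and the medians were -0.14 in WT and -0.03 in OTC. Of all genes, 16.4% were lower between the controls, 17.2% with sh-GLS2 in WT and 22.6% in OTC.

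Of 5 tested transporters of nucleosides and organic anions, 1 was higher and 1 lower in OTC control, and sh-GLS2 raised 2 in WT and raised 2 and lowered 2 in OTC. Over all genes, 36.3% were called between the controls, 34.8% with sh-GLS2 in WT and 42.7% in OTC. Of these transporters, Slc22a7 changed most. It encodes an organic anion transporter of the hepatocyte membrane, for which orotate is among the known substrates. It was at 5.77 CPM (lowest), 16.7 (median) and 28.9 (highest) in WT control and at 0.108, 0.788 and 2.14 in OTC control, without overlap. The change was -4.12 ± 0.44 (adjusted p = 4.34e-10). With sh-GLS2 it was at 27.2, 50.1 and 110.4 CPM in WT and at 5.39, 15.9 and 26.7 in OTC, with changes of 1.71 ± 0.31 (adjusted p = 2.17e-05) and 3.94 ± 0.44 (adjusted p = 2.83e-10). The strain difference was 2.23 ± 0.53 (adjusted p = 0.0408). Only the 10 enzymes were followed under the alternatives, so this call was not rechecked. Over all genes, calls for this difference fell from 45 to 10 without OTC control mice 3 and 67. With sh-GLUD1 it was at 1.63 ± 1.22 CPM (n = 8) in OTC and 22.5 ± 11.2 (n = 9) in WT.

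**Figure D4:**
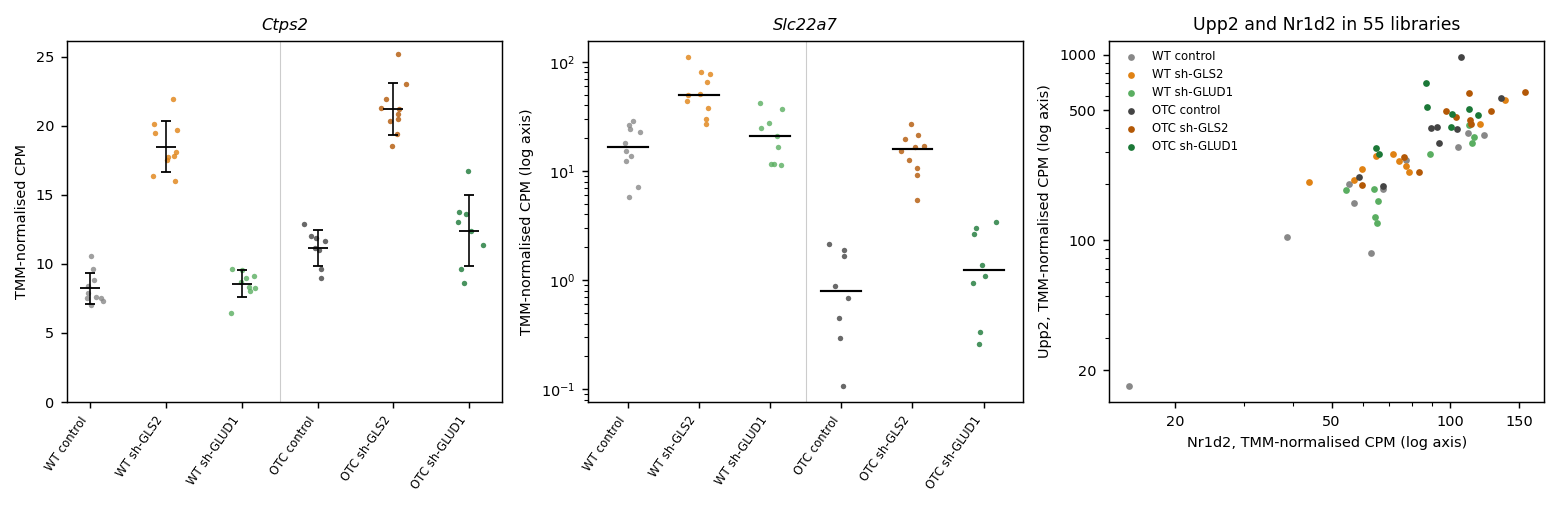
TMM-normalised CPM by group of Ctps2 (points, mean and SD) and of Slc22a7 (log axis, with a bar at the median), and Upp2 against Nr1d2 in the 55 libraries (both axes log). Ctps2 is at 16.0 to 25.2 CPM in the sh-GLS2 groups and at 6.48 to 16.7 in the others; Slc22a7 is at or below 3.39 CPM in OTC control and OTC sh-GLUD1.

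In the carbamoyl phosphate and urea cycle list of 8, 4 genes were higher and 1 lower in OTC control, and sh-GLS2 lowered 7 and raised 1 in OTC against 1 lowered in WT. These counts were not repeated without Otc, whose allele itself differs by strain. Mean Otc was 522 CPM in WT mice with the control vector and 61.2 CPM in their OTC counterparts. It was 73.55 CPM where OTC mice received sh-GLS2. Cps1, which makes the mitochondrial carbamoyl phosphate, was 0.58 ± 0.12 higher in OTC control (adjusted p = 0.000237) and fell by 0.53 on the log2 scale with sh-GLS2 in OTC (SE 0.12, adjusted p = 0.000493). Of 11 enzymes of deoxypyrimidines and DNA precursors, 1 was higher and 3 lower in OTC control, 1 higher and 2 lower with sh-GLS2 in WT, and 0 higher and 3 lower in OTC. Tymp, thymidine phosphorylase, was among the lower in all 3 (-0.36 ± 0.14, -0.79 ± 0.13 and -0.59 ± 0.14; adjusted p = 0.0323, 2.83e-06 and 0.000412). Of 15 genes of purine synthesis and its PRPP supply, 5 were higher and 3 lower in OTC control, and sh-GLS2 gave 2 higher and 3 lower in WT and 2 higher and 4 lower in OTC. Beside these lists, 19.9% of all genes were higher and 16.4% lower between the controls. With sh-GLS2 the shares were 17.6% and 17.2% in WT, and 20.2% and 22.6% in OTC.

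For each enzyme, the genes most alike were found by Pearson's r of log2 CPM over the 55 libraries with group means removed, a description without a test, since all genes of a library share its depth and its tissue piece. Upp2 was most like Nr1d2 (r = 0.89, Spearman's rho 0.83), Tef (0.86, 0.82) and Zfp385b (0.86, 0.82). Nr1d2 and Tef encode regulators of the circadian clock and its output. Without the 2 libraries where Upp2 lay farthest from its group mean, r was 0.86, 0.84 and 0.81. Of the 16 clock genes listed, 4 were higher and 2 lower in OTC control than in WT control, Per1 among the higher (2.51 ± 0.49, adjusted p = 6.85e-05). In that comparison 19.9% of all genes were higher and 16.4% lower. The hour of liver collection is not given in the sources used here, and its part in the level of Upp2 was not tested.

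Cad was most like Gmppb (r = 0.89, rho 0.86), Lrrc59 (0.88, 0.84) and Hsp90aa1 (0.85, 0.79), and r was 0.82, 0.80 and 0.80 without the 2 libraries where Cad lay farthest from its group mean. Hsp90aa1 encodes a cytosolic chaperone and was highest in mouse 7, at 467 CPM against 150.2 to 287 in the other 9 WT controls. Umps was most like H2-Q10 (0.85, 0.77), Upb1 like Asgr2 (0.84, 0.78), Uck1 like Sema5b (0.78, 0.69), Dpyd like Ak3 (0.77, 0.72), Cmpk1 like Sypl (0.76, 0.75) and Dpys like Acat1 (0.69, 0.52). Uck2 with Mdh2 (0.63, 0.52) and Dhodh with Tm6sf2 (0.61, 0.54) had the lowest values. Among the 10 themselves, Upp2 and Upb1 (r = 0.73, rho 0.59) and Dpyd and Upb1 (0.62, 0.55) had the highest values. Cad had negative values with Dpyd (-0.66, -0.56), Upb1 (-0.65, -0.48) and Upp2 (-0.62, -0.48). Without WT control mouse 7, r was 0.59 and 0.49 for the first pairs and -0.53, -0.46 and -0.38 for those of Cad, over 54 libraries.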

How the data were processed

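Poly(A) RNA of 55 livers was sequenced as strand-specific libraries, per the labels' protocols. The authors deposited whole-number read counts per gene symbol, not normalised, and TPM values per gene. The submitters' processing notes name CASAVA 1.8.2, FastQC and GRCm38; the aligner, counter and annotation are not given in the sources used here. The columns were matched to mice by strain, vector and mouse number, except 1 OTC control column whose number matches no title, which was used as a control without a number. Only the fit with mouse number as covariate used the number of that column, 26.

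Counts were scaled by TMM and tested with edgeR 4.0.16 (R 4.3.3) over all 55 libraries with 1 term per group, after filterByExpr (minimum count 10, minimum total 15), two-sided, with Benjamini-Hochberg adjustment over 13311 genes. The standard error is the fold change divided by the square root of F, and 95% intervals use the t quantile of the fit's degrees of freedom. Levels between genes were compared with the deposited TPM. Totals of 14489866 to 22781052 counts set the precision; reads carry no molecular identifiers, so error is taken from the spread between mice. Within groups, 227 library pairs were checked for duplicates, and none came near sampling noise (smallest chi-square per degree of freedom 10.5). Genes were placed with GENCODE M21.

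The 10 genes, 19 other lists and the comparisons were chosen with earlier results of these data known. All 10 were named in all groups; from each other list, per comparison at most 3, those of smallest adjusted p, and for each of the 10 the 3 genes most alike (log2 of CPM + 0.5); part of these are printed, with Saa1, Pomt1 and the vector targets added after their values were seen. Alternatives were DESeq2 size factors, no filter, at least 1 CPM in 8 libraries, the DESeq2 1.42.0 Wald test, the compared groups only, mouse number as covariate, limma 3.58.1 on log2(TPM + 1) and log2(TPM + 0.1) with a mean of at least 1 TPM, and each library left out. Fits without WT control mouse 13, without OTC control mice 3 and 67, and without all 3 were added after the data were seen. The pipeline was tested on simulated data.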

Additional observations from a re-analysis of the deposited data

Results flagged for a closer look

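In 7 of 60 combinations of enzyme and group, 1 library lay farther from its neighbour than Dixon's 95% limit allows; chance alone flags about 1 in 20 groups. WT control mouse 7 gave 3 of them: Cad at 43.4 CPM with the other 9 mice at 8.24 to 14.3, Dpyd at 425 with the others at 611 to 699, and Dpys at 107 with the others at 170.4 to 212. The same mouse had the highest Saa1 (904 CPM), Saa2 (868) and Hsp90aa1 (467) of its group and the lowest Nr1d2 (15.3) and Tef (10.96).

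OTC control mouse 67 was high for Dhodh, at 9.61 CPM with the other 7 at 7.30 to 8.12, and held the highest Upp2 of all 55 libraries, 968 CPM. WT sh-GLS2 mouse 45 was high for both Umps (39.7 CPM) and Uck1 (54.97 CPM). OTC sh-GLUD1 mouse 53 was high for Upb1, at 342 CPM.

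Dhodh was singled out because its response to sh-GLS2 differed between the strains, by -0.43 ± 0.10 on the log2 scale (edgeR adjusted p = 0.0442).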

How the results depend on the processing

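No called change reversed its direction. Of 1210 values (110 enzyme changes under 11 alternatives), 1179 kept their side of the threshold, 23 lost it and 8 gained it, and of 2380 values with 1 library left out 2322 kept it, 53 lost it and 5 gained it. Changes that were not called did turn sign, in 41 of the 1210 and 44 of the 2380 values, such as Upp2 with sh-GLUD1 in WT (0.22, and -0.11 with mouse number as covariate) and Cad with sh-GLUD1 in WT (-0.33, and 0.03 without WT control mouse 7). The count of enzymes with a strain difference in the sh-GLS2 effect fell from 1 to 0 with DESeq2 size factors, with no filter on low counts, on log2(TPM + 1) and log2(TPM + 0.1), with only the compared groups, without OTC control mice 3 and 67 and without these and WT control mouse 13; Dhodh was then at -0.42 to -0.33 with adjusted p of 0.0527 to 0.109, and the cause was not tested. With 1 library left out, that count ran from 0 to 1, and the count for OTC against WT under sh-GLUD1 from 3 to 5, with 3 without OTC sh-GLUD1 mouse 58, where Upp2 and Uck2 were lost. Counts ran from 5 to 7 for OTC against WT control, from 2 to 4 for sh-GLS2 in WT and from 4 to 5 for sh-GLS2 in OTC. Dhodh with sh-GLS2 in WT lost its call under 7 of 11 alternatives (-0.18 to -0.13), Upp2 between the controls under 3, one of them the fit of only the compared groups (adjusted p = 0.0666), and Uck2 with sh-GLS2 in OTC under 2. On log2(TPM + 1) the median of all genes between strains stood at 0.10, 0.12 and 0.15 with control, sh-GLS2 and sh-GLUD1 vectors, and 77.5%, 85% and 85.5% of calls were higher, against 54.9%, 49.3% and 56.8% in counts. There Uck2 under sh-GLS2 (0.28) and Upb1 under sh-GLUD1 (0.18) gained a call between strains, and Upp2 with sh-GLS2 in WT gained one (0.83, adjusted p = 0.0476). No paired analysis was possible because the mouse numbers do not repeat across groups. Raw counts of the 10 went down to 49 in a library. Standard errors in the comparisons of 2 groups were 0.31 to 0.34 for Upp2 and 0.07 to 0.08 for Dhodh.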

Other observations

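Among 6 pyrimidine nucleotidases, Nt5c was 0.69 ± 0.07 higher in OTC control (adjusted p = 4.1e-10, edgeR). With sh-GLS2 it rose in WT by 0.26 ± 0.07 (adjusted p = 0.00328) and fell by 0.18 on the log2 scale in OTC (SE 0.07, adjusted p = 0.0437), a strain difference of -0.44 ± 0.10 (adjusted p = 0.0334). These calls of Nt5c were not rechecked under the alternatives or with libraries left out. In the list as a whole, 2 of 6 were higher and 1 lower in OTC control. With sh-GLS2, 4 of the 6 rose in WT and 0 fell, and 3 rose and 1 fell in OTC. Over all genes, 36.3% were called between the controls, 34.8% with sh-GLS2 in WT and 42.7% in OTC. Nt5e, the nucleotidase of the cell surface, was at 12.8 ± 7.98 CPM (SD, n = 8) in OTC control and 39.03 ± 19.5 (n = 10) in OTC sh-GLS2 (1.62 ± 0.44, adjusted p = 0.00215).

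Uckl1, a relative of the uridine kinases, was 0.35 ± 0.05 higher in OTC control (adjusted p = 1.47e-06), so that it moved in the direction of Uck2 and not of Uck1. Impdh2, the enzyme that commits purines to GMP, fell by 0.71 on the log2 scale with sh-GLS2 in OTC, from 38.3 ± 3.82 CPM (n = 8) to 23.4 ± 2.39 (n = 10).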
